A study of Homo sapiens with 4 samples.

Results

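The FKBP5 locus was described as the open regions of LNCaP cells whose summits lay in chr6:35490000-35750000 (hg19), a 260 kb window around FKBP5. FKBP5 is transcribed from the minus strand, with its start at 35696397 and its end at 35541362, a span of 155.0 kb. The window held 42 listed peaks of 358286 in the whole series, 20 of 194551 in the vehicle list and 22 of 163735 in the GSK2879552 list. LNCaP cells are a human prostate cancer line that responds to androgen. Their accessible DNA was tagged by a transposase and sequenced (ATAC-seq). Groups were given vehicle or GSK2879552, which inhibits LSD1 (KDM1A), a histone demethylase, and the labels give 50 µM for 4 hours in RPMI medium with 5% CSS. Cells were kept in medium with 10% FBS before that. Each condition had 2 sequencing lanes, labelled as technical replicates, and 1 peak list that both lanes name. With 1 library per condition no difference below has a replicate check or a test, and every interval covers counting error only.

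FKBP5 encodes FKBP51, a co-chaperone of Hsp90 that binds steroid receptor complexes. It is among the best known genes induced by androgen in prostate cells and by glucocorticoid in many tissues, and receptor-bound enhancers within its introns have long been studied. LSD1 removes methyl groups from histone H3 and acts with the androgen receptor and the pioneer factor FOXA1 at such enhancers. The working name of the locus speaks of intronic enhancers. No exon positions of the hg19 build were used here, so peaks are placed by their distance from the FKBP5 start, and neither intron nor enhancer was checked. The line was likewise not checked against its marker genes.

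The RefSeq table of GRCh38.p14 gives 2 transcription starts for FKBP5, and the 250 bases before each are shown because the tallest summits of the locus fell in 2 places with a similar spacing. Start 1 is the outer one, at the edge of the gene span, with its upstream window at chr6:35728584-35728833 of GRCh38.p14. Start 2 lies within the gene, with its window at chr6:35688916-35689165. Both are on the minus strand and are printed 5′ to 3′ in the direction of transcription, with each CG dinucleotide and each CCAAT box in capitals.
FKBP5 start 1: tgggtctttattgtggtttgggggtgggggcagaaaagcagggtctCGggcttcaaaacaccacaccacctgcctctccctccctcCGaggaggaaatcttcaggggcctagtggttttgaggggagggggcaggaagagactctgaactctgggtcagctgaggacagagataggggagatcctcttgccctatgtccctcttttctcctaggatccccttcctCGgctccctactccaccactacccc
FKBP5 start 2: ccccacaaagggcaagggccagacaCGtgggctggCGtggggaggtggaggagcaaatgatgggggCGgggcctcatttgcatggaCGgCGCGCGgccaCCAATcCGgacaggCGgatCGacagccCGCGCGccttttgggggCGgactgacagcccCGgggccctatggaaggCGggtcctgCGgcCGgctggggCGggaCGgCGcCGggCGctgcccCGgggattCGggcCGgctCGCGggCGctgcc

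The windows before the starts differed in base composition. Start 1 had 57.6% G and C and 3 CG dinucleotides, and 22.9% of the 35116 windows in the table had fewer. Start 2 had 74.8% G and C and 29 CG dinucleotides, more than 85.9% of all windows. A CCAAT box, searched as CCAAT and ATTGG, stood once before start 2 and not before start 1, and 32.0% of all windows held one. The androgen receptor core motif AGAACA, searched with its complement TGTTCT, and the forkhead cores TGTTTAC and TGTTTGC, searched on both strands, had no match in either window. They occur in 12.4%, 2.98% and 3.23% of all windows. In GRCh38 the starts lie 39668 bp apart. In the hg19 peak lists the 2 summits with the most tags lay 39147 bp apart with vehicle and 39098 bp apart with GSK2879552. From the hg19 start of FKBP5, the taller of these summits lay 39650 bp downstream with vehicle and 39602 bp with GSK2879552. These distances are close to the spacing of the 2 starts, so the wide region described below may hold start 2. Positions were not carried between the builds, so this was not tested.

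Tags at a summit are the reads that the peak caller piled up there, recovered as whole numbers from the deposited fold and −log10 p. The vehicle summits of the locus carried 10 to 84 tags (median 26), and the GSK2879552 summits 11 to 69 (median 21). By the caller's genome-wide background, 2.31 tags per position with vehicle and 2.72 with GSK2879552, the GSK2879552 library was 17.6% deeper. Ratios called scaled were divided by this factor of 1.18. The accessible stretches fell into a group around the start, 1 wide region about 40 kb inside the gene, a group of smaller peaks far downstream in the gene, and flanking peaks on both sides. Between start and end lay 9 vehicle and 11 GSK2879552 peaks, with 6 beyond the start and 5 beyond the end in each list.

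**Figure D1:**
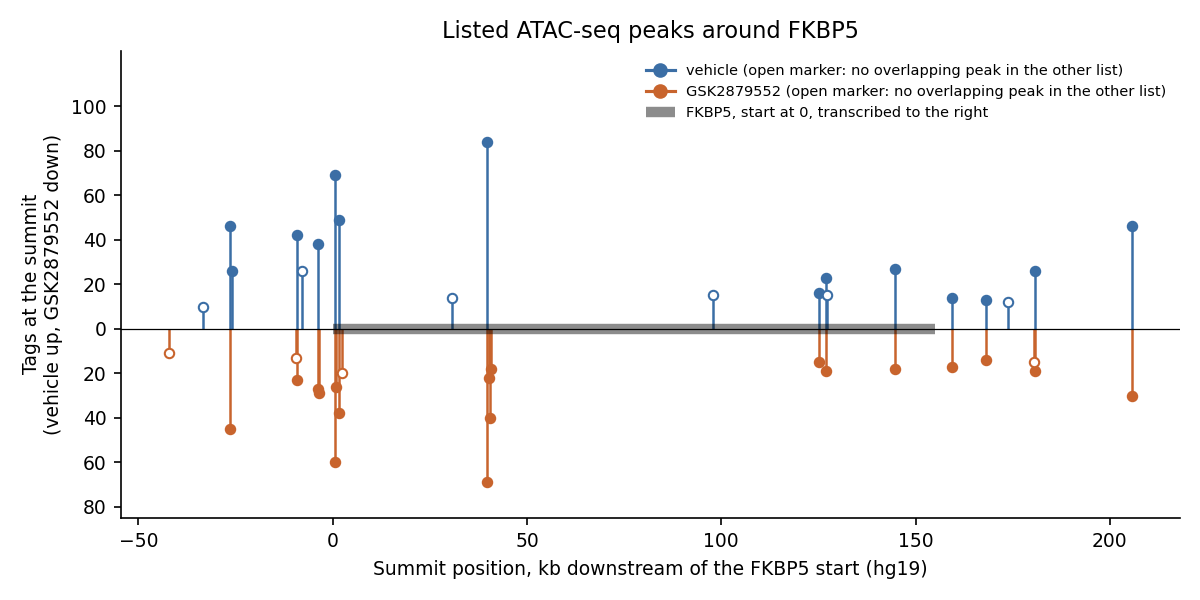
Tags at each listed summit (vertical axis, vehicle upwards and GSK2879552 downwards) against its distance from the FKBP5 start in kb (horizontal axis, hg19). The tallest summits of both lists stand about 40 kb downstream of the start, with 84 and 69 tags, and open markers show the 6 vehicle and 4 GSK2879552 peaks with no partner.

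The widest and tallest open region of the locus lay inside the gene, 39.6 kb downstream of the start. With vehicle it was a single peak of 1600 bp at chr6:35655490-35657089, with 84 tags at its summit (exact 95% Poisson interval 67.0 to 104), and 96.6% of the vehicle list was weaker by −log10 p. With GSK2879552 the same stretch was listed as 4 peaks that together covered 1249 bp, or 78.1% of the vehicle width. The largest of them, chr6:35656496-35657071, had 69 tags (53.7 to 87.3), with its summit 48 bp from the vehicle summit, and was stronger than 96.8% of its list. The others carried 40 tags at chr6:35655727-35656092, 22 tags at chr6:35656171-35656372 and 18 tags at chr6:35655561-35655665. A vehicle value for these 3 summits is not given, since a list states 1 summit per row. The region was thus open under both conditions and near the top of both lists, and its tallest summits gave a scaled ratio of GSK2879552 to vehicle of 0.699 (exact 95% binomial interval 0.501 to 0.972), or 0.821 unscaled.

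Around the outer start, 0.5 kb inside the gene, the vehicle peak chr6:35695492-35696169 was 678 bp wide with 69 tags (53.7 to 87.3). It corresponded to 2 GSK2879552 peaks, chr6:35695737-35696083 with 60 tags (45.8 to 77.2) and chr6:35695462-35695624 with 26 tags. The vehicle summit and the taller GSK2879552 summit lay 1 bp apart, so the same position led under both conditions. The scaled ratio there was 0.740 (0.514 to 1.06), and the interval included 1. A second peak 1.6 kb inside the gene, chr6:35694687-35694965 in the vehicle list, was nearly as wide with GSK2879552 (279 and 272 bp) and carried 49 and 38 tags, a scaled ratio of 0.660 (0.420 to 1.03). Another, chr6:35693962-35694061 with 20 tags, was listed with GSK2879552 only and was weak, above 4.41% of its list.

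Upstream of the start, 3.7 kb away, the vehicle peak chr6:35699722-35700213 of 492 bp again corresponded to 2 shorter GSK2879552 peaks. It had 38 tags, and they had 29 at chr6:35699763-35699879 and 27 at chr6:35699969-35700153. The second of them shared the vehicle summit to within 1 bp, and at that position the scaled ratio was 0.604 (0.355 to 1.02), while the taller summits gave 0.649 (0.386 to 1.08). Splitting of this kind was listed for 3 of the 20 vehicle peaks, and for 3.15% of all vehicle peaks. Of the 20, 2 were at least 500 bp wide and both were split, while 25.5% of all 18050 vehicle peaks of that width were. The width was chosen after the widths of the locus were seen.

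**Figure D2:**
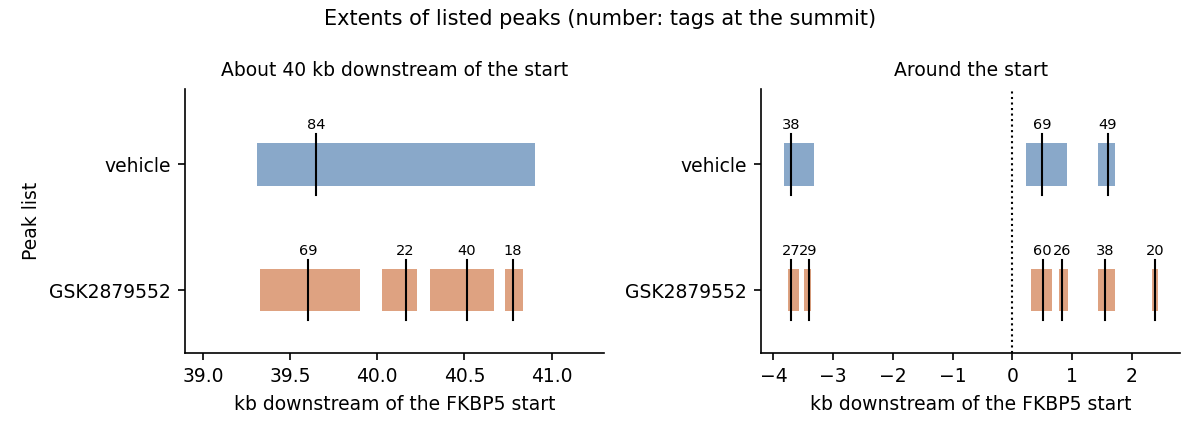
Extents of the listed peaks (bars), their summits (black ticks) and the tags there (numbers) for both lists, against the distance from the FKBP5 start in kb, for the wide region inside the gene (left) and the start (right, start as dotted line). The vehicle peaks with 84, 69 and 38 tags correspond to 4, 2 and 2 GSK2879552 peaks.

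Farther upstream, the regions at 9.1 kb and 26.4 kb gave the lowest ratio of the locus and one of its higher ratios. At 9.1 kb the vehicle peak chr6:35705365-35705559 had 42 tags (30.3 to 56.8), and the GSK2879552 peak chr6:35705409-35705555 had 23 (14.6 to 34.5). The scaled ratio, the lowest of the 13 shared regions, was 0.466 (0.267 to 0.792), and 3.70% of all shared regions of the genome had a lower one. At 26.4 kb a single GSK2879552 peak of 364 bp, chr6:35722499-35722862, spanned 2 vehicle peaks, chr6:35722580-35722924 with 46 tags and chr6:35722317-35722507 with 26. It carried 45 tags, nearly the vehicle number before scaling, and the scaled ratio was 0.832 (0.539 to 1.28). Merging in this direction was listed for 1 of the 22 GSK2879552 peaks and 0.665% of all GSK2879552 peaks. The intervals of these upstream ratios overlap, and the difference between the ratios was not tested. In the RefSeq order of GRCh38 the next protein-coding gene on this side is ARMC12. Its hg19 position was not used, so whether any of these peaks lie at or within it was not checked. Which gene these peaks serve was not tested.

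The interior of the gene downstream of the wide region held smaller peaks. Next to that region, no GSK2879552 peak was listed for 84.3 kb, from 35571251 to 35655560. In the vehicle list the longest empty stretch of the gene was 56.9 kb, from 35598556 to 35655489, bounded by a vehicle-only peak. Then came a pair of regions 126.9 and 125.2 kb from the start. The first, chr6:35569423-35569602 in the vehicle list, had 23 tags with vehicle and 19 with GSK2879552, with summits 6 bp apart and a scaled ratio of 0.703 (0.362 to 1.35). The second, chr6:35571147-35571259, had 16 and 15 tags, with summits 7 bp apart and a scaled ratio of 0.797 (0.367 to 1.72). Both positions were therefore listed at nearly the same base under both conditions, and the small tag numbers leave their ratios unresolved.

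The last region of the gene, 144.6 kb from the start, showed a lower value. The vehicle peak chr6:35551723-35551939 had 27 tags (17.8 to 39.3) over the genome-wide background, and the GSK2879552 peak chr6:35551771-35551897 had 18 (10.7 to 28.4). The scaled ratio was 0.567 (0.294 to 1.07), the lowest of the 4 pairs between start and end. Its width went from 217 to 127 bp. Median widths over all chromosomes were 189 bp with vehicle and 171 bp with GSK2879552. Summed over those 4 pairs, 115 vehicle and 90 GSK2879552 tags gave a scaled ratio of 0.666 (0.5 to 0.885).

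Beyond the end of the gene 4 pairs were listed, and they included the highest ratio of the locus. The farthest, 205.6 kb from the start at chr6:35490544-35490907, had 46 vehicle tags (33.7 to 61.4) and 30 GSK2879552 tags (20.2 to 42.8), and its width fell from 364 to 136 bp. Its scaled ratio was 0.555 (0.338 to 0.898), below 1 over its whole interval. At 180.7 kb, chr6:35515460-35515835 had 26 and 19 tags, a scaled ratio of 0.622 (0.325 to 1.17). The weakest pairs stood nearest to equality. This order is partly set by the listing, since a pair needs a listed peak under both conditions. A weak vehicle peak with a much lower GSK2879552 count would form no pair. At 168.2 kb, chr6:35528167-35528276 had 13 and 14 tags, and at 159.5 kb, chr6:35536861-35536992 had 14 and 17. The first was 110 bp wide in both lists, and the second was wider with GSK2879552, 169 against 132 bp. Their scaled ratios were 0.916 (0.399 to 2.12) and 1.03 (0.479 to 2.26), and the latter was the only one above 1. The next protein-coding gene on this side in the RefSeq order is TULP1, whose hg19 position was likewise not used.

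**Figure D3:**
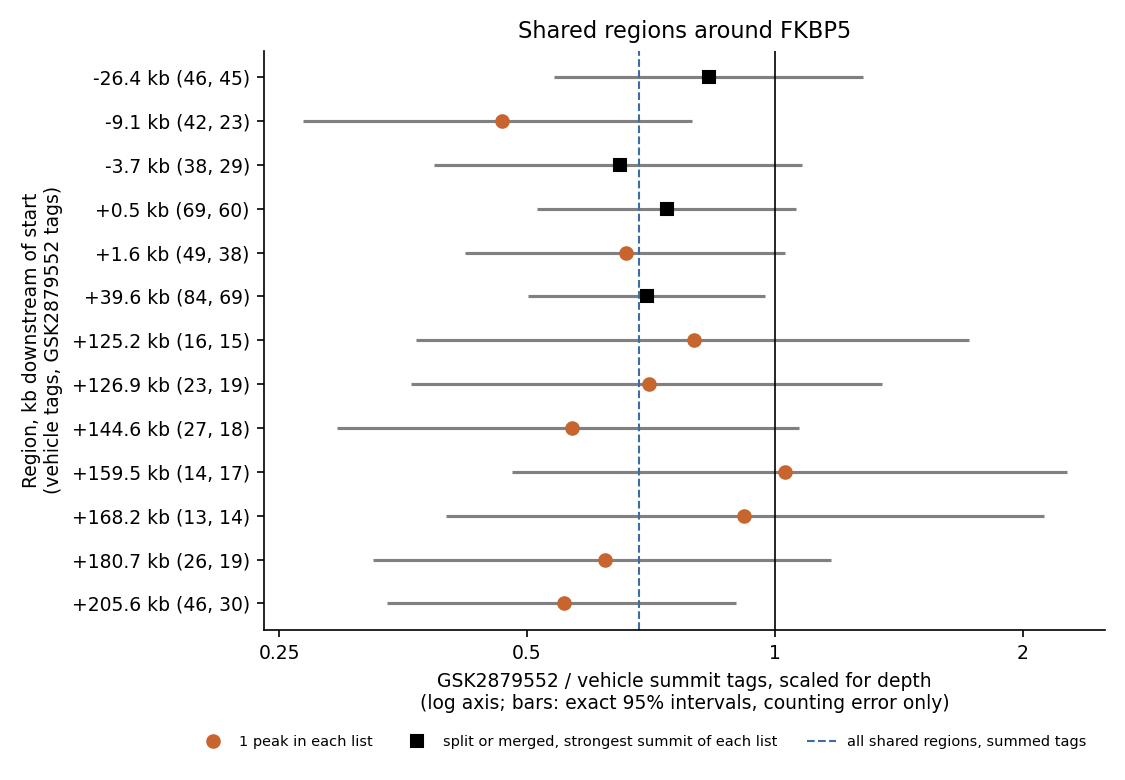
Depth-scaled ratio of GSK2879552 to vehicle summit tags (horizontal, log axis) for the 13 shared regions, ordered by kb from the FKBP5 start, with exact 95% binomial intervals as bars and both tag numbers in the labels. Of the 13 ratios 12 lie left of 1, as do 94.2% over all shared regions, and each interval includes the dashed line, 0.684, the ratio over all shared regions of the genome.

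Over the locus as a whole the ratio stood within counting error of that of all chromosomes. Joining overlapping peaks of both lists gave 23 regions, of which 13 were shared, 6 were vehicle-only and 4 GSK2879552-only. At the tallest summits of the shared regions, 493 vehicle and 396 GSK2879552 tags gave a scaled ratio of 0.683 (0.597 to 0.781), and the 116984 shared regions of all chromosomes gave 0.684 (0.683 to 0.685). A scaled ratio below 1/1.5 was found in 6 of the 13 and in 45.1% of all shared regions. A ratio above 1.5 was found in 0 of the 13 and in 0.174% of all. The interval lay below 1 in 3 of the 13, those at 9.1 kb upstream and at 39.6 and 205.6 kb downstream, and in 27.5% of all shared regions. A scaled ratio below 1 was found in 12 of the 13 and in 94.2% of all. Before scaling, 11 of the 13 and 83.6% of all had fewer tags with GSK2879552, and 2 of the 13 and 12.5% of all had more. These counts at the locus are near those shares.

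Restricting the comparison to the 9 regions with exactly 1 peak in each list left out the wide regions and gave 256 against 193 tags, a scaled ratio of 0.641 (0.529 to 0.776). The median scaled log2 ratio of these pairs was -0.60, where all 110134 pairs had -0.56 and the 5920 pairs of chromosome 6 had -0.58. A scaled ratio below 1/1.5 was found in 5 of the 9 and in 45.5% of all pairs, and one above 1.5 in 0 of the 9 and in 0.172%. When all chromosomes were divided into tiles of 260 kb, the median scaled ratio of the 8762 tiles with at least 5 pairs was 0.675 (interquartile range 0.646 to 0.703), and 22.2% of them lay below the 0.641 of the locus.

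The tags over 10 kb around a summit were set beside the summit tags. The caller writes this count, divided by 100, as the local background wherever it exceeds the genome-wide one. It includes the peaks themselves, which were not subtracted, so a raised count does not show raised accessibility outside the peaks. Around the summit 0.5 kb inside the gene, 1003 vehicle and 879 GSK2879552 tags were counted in 10 kb, which is 4.34 and 3.24 times the genome-wide level of each library. Around the wide region 39.6 kb inside the gene it was 720 and 586 tags, or 3.12 and 2.16 times. Near the start and the wide region, then, both libraries had raised levels, the vehicle library more so.

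At the shared regions farther from the start and the wide region the 10 kb counts were lower. They were 271 and 284 tags at 125.2 kb, 1.17 and 1.05 times the genome-wide level, and 346 and 360 tags at 205.6 kb, 1.5 and 1.33 times. Upstream they were 410 and 426 tags at 9.1 kb, 1.77 and 1.57 times, and 362 and 384 tags at 26.4 kb, 1.57 and 1.41 times. Of these 4 regions, the one at 125.2 kb was closest to the genome-wide level in both libraries. The scaled ratio of the 10 kb counts was 0.692 (0.620 to 0.773) at the wide region, 0.745 (0.680 to 0.817) at 0.5 kb, 0.780 (0.709 to 0.859) at 1.6 kb and 0.802 (0.729 to 0.883) at 3.7 kb upstream, with intervals below 1. The 10 kb stretches of the last 3 overlap each other, so they are not independent. The stretch at 3.7 kb upstream also overlaps that of the region 9.1 kb upstream. At the other 4 regions, which include the one at 9.1 kb, the scaled ratio was 0.884 to 0.902, with intervals that include 1. Over the genome the median ratio was 0.892 for 66547 pairs above the genome-wide background and 0.780 for the 14174 pairs with a vehicle level of at least 3 times that background.

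**Figure D4:**
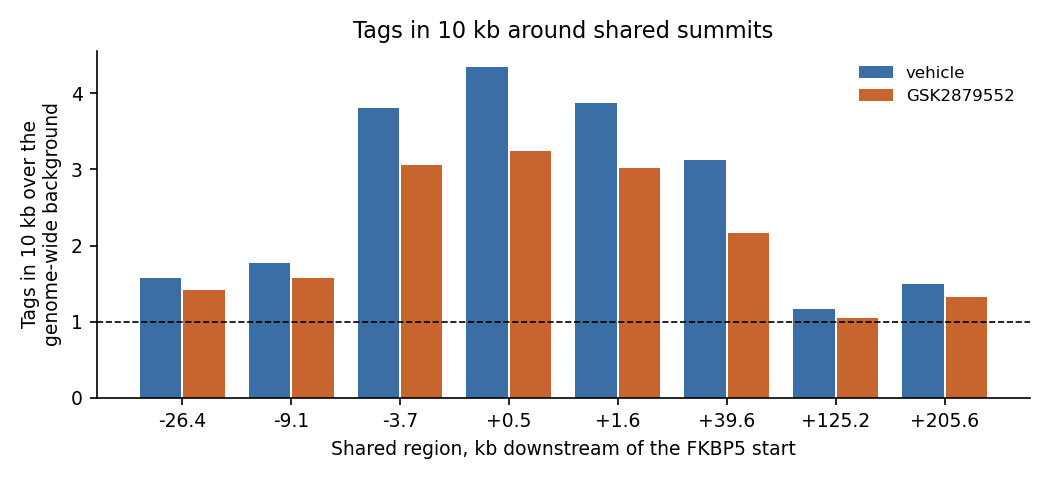
Tags counted in 10 kb around the summit of 8 shared regions, as a multiple of the genome-wide background of the same library (vertical axis), by kb from the FKBP5 start, with negative values upstream. Vehicle bars are higher in each of the 8 regions, and the largest levels, 4.34 and 3.24, are at 0.5 kb.

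Peaks listed under 1 condition only were weak in both lists. No overlapping GSK2879552 peak was found for 6 of the 20 vehicle peaks, beside 38.5% of all vehicle peaks. No overlapping vehicle peak was found for 4 of the 22 GSK2879552 peaks, beside 23.5% of all GSK2879552 peaks. As shares with a partner, these are 70.0% (exact 95% Clopper-Pearson interval 45.7 to 88.1) for vehicle and 81.8% (59.7 to 94.8) for GSK2879552, against 61.5% and 76.5% over all chromosomes. With so few peaks, the intervals include the genome's shares.

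The vehicle-only peaks carried 10 to 26 tags. The one with the most tags, chr6:35704185-35704296, lay 7.8 kb upstream on a local background of 6.18, with the nearest GSK2879552 peak 1112 bp away. Inside the gene, chr6:35598426-35598555 had 15 tags (8.40 to 24.7) and was the sole listed peak between the wide region and those at 125.2 kb and beyond, with the nearest GSK2879552 peak 27175 bp away. The peak chr6:35569179-35569355, also with 15 tags, stood beside the shared region at 126.9 kb, 73 bp from its GSK2879552 peak. The peaks at chr6:35665679-35665878 and chr6:35522677-35522895 had 14 and 12 tags, and chr6:35729558-35729738 had 10. At the ratio of all pairs, these 6 peaks correspond to 8.03 to 20.9 GSK2879552 tags. For chr6:35729558-35729738 that number, 8.03, is under the 9 tags that were the fewest listed on a like background. For the other 5 it is above the fewest listed, by the least at chr6:35522677-35522895, with 9.63 against 9. The ratio comes from peaks listed under both conditions, while these 6 were picked as listed with vehicle only. The comparison therefore cannot say whether they should have been listed with GSK2879552. How many tags the GSK2879552 library had at these positions is not given by its list.

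The GSK2879552-only peaks carried 11 to 20 tags, and 3 of the 4 lay within 625 bp of a vehicle peak. The strongest by −log10 p, chr6:35515977-35516091 with 15 tags, lay 141 bp from the vehicle peak at 180.7 kb, and chr6:35705840-35705939 with 13 tags lay 280 bp from the vehicle peak 9.1 kb upstream. Only chr6:35738358-35738509, 42.0 kb upstream with 11 tags, stood apart, 8619 bp from a vehicle peak and above 0.353% of its own list. The larger number of GSK2879552 peaks in the locus came from the 3 split regions, since GSK2879552-only peaks were fewer than vehicle-only ones. More GSK2879552 than vehicle peaks were listed in 18.8% of the 11075 tiles of 260 kb. In bases the order was the opposite, since the locus peaks covered 6.29 kb with vehicle and 4.36 kb with GSK2879552. That is 69.2% of the vehicle length, and 75.1% over all chromosomes.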

How the data were processed

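Both deposited peak lists were used. Per the submitters' processing notes, which give no roles, the tools were MACS2 2.1.2, BWA 0.7.2 and SAMtools 0.1.18, on hg19 (GRCh37). For trimming, duplicates and a shift of reads to the cut site, the sources used here give nothing. The authors deposited, per peak, a score (10 times −log10 q, rounded down, in all rows but 3), a fold over background (a ratio), −log10 p and −log10 q, and the summit offset. Peaks were called separately per condition. Folds and −log10 values are within-library and were used to rank peaks of their own list.

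Summit tags and background were recovered from fold and −log10 p, taking fold as tags plus 1 over background plus 1. Whole tags matched within 0.001 in 100% of rows of both lists. They were also recovered in 100% of 5000 simulated rows. Those rows were made with the same formula, so they check the inversion and not the formula. No summit exceeded 199 tags, where 1 tag of 100 bp per position and strand allows 200. Library totals are likewise not stated. Peaks of chromosomes 1 to 22, X and Y were compared, sharing at least 1 bp. Shared regions are unions of overlapping peaks, represented by the tallest summit of each list, a choice made after the data were seen. The share of all pairs past a fold of 1.5 served as background. A single 10 kb count is the local background times 100, since backgrounds were multiples of 0.01. Peaks named were the one nearest the start, the 10 tallest of the vehicle list, the 3 highest and lowest ratios of pairs with at least 40 tags, the 5 strongest in 1 list only and the split or merged ones. The other peaks were added after their values were seen, so that each of the 42 could be accounted for. Members and lists were chosen with earlier results of these data known. Promoter windows came from RefSeq, GRCh38.p14, where FKBP5 matched by symbol. A marker gene check was planned and not made, as it needs hg19 gene positions. Computations used SciPy 1.17.1, pandas 2.3.3 and NumPy 2.4.6 under Python 3.11.15.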

Additional observations from a re-analysis of the deposited data

How the results depend on the processing

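No paired analysis was possible because there is 1 library for vehicle and 1 for GSK2879552, the lanes being technical replicates, and for the same reason no replicate could be left out. Between the start and end of FKBP5 only, 9 of the 20 vehicle peaks and 11 of the 22 GSK2879552 peaks remain, and 2 of the 5 pairs below 1/1.5, by construction. At a −log10 q of at least 5, which depends on depth, 17 vehicle and 14 GSK2879552 peaks remained, so their order turned. The share of GSK2879552 peaks with a vehicle partner, 81.8%, was 45.5% with a reciprocal overlap of 50% and 59.1% with summits within 250 bp. The 4 GSK2879552 peaks within the 1600 bp vehicle peak are at most 576 bp wide, so none can cover 50% of it. What else lowered these shares was not tested. The vehicle share stayed within its interval, at 50.0% to 77.8%. Pairs below 1/1.5 numbered 3 of 9 without scaling for depth and 3 of 3 among pairs with at least 60 tags. The scaled ratio of summed tags, 0.641, was 0.565 to 0.754 and the median log2 ratio, -0.60, was -0.85 to -0.37 over the 6 alternatives run, all within the interval of the main value and below equality. Depth limits single regions: with under 30 tags in both lists the intervals of the ratio included 1. So did some with more tags, such as 69 and 60 tags at 0.5 kb (0.514 to 1.06). The interval lay below 1 in 3 of the 13 shared regions.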
